A study of Mus musculus with 14 samples.

Results

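The 40 genes described here encode the core machinery of the mammalian cell cycle: cyclins and their kinases, the Rb and E2F regulators, the factors that load and start DNA replication, and the kinases and checkpoint proteins of mitosis. They were taken as a list of gene symbols, and all 40 were found among the 22026 genes of the RNA files. Cyclins bind and activate cyclin-dependent kinases. D-type cyclins with Cdk4 or Cdk6, and E-type cyclins with Cdk2, phosphorylate Rb, which releases E2F transcription factors to switch on genes of DNA replication. Later in the cycle B-Myb and FoxM1 switch on genes of mitosis. Fibroblasts in culture spend much of their cycle in G1, whereas pluripotent cells are known for fast division, a short G1 phase and high cyclin E activity.

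RNA was sequenced in 4 libraries from mouse tail fibroblasts, 1 library for each genotype label at each stage. The stages were cultures reprogrammed for 3 weeks by forced expression of Oct4, Sox2, Klf4 and cMyc, and untreated fibroblasts. The genotype labels were AID-null and wildtype. For the animals, neither strain, sex, age and number nor the AID allele is stated in the sources used here. The 3-week RNA came from whole cultures and not from picked clones, so a lower level in such a bulk sample cannot tell fewer cells of a type from less RNA per cell.

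Values are FPKM, the fragments of a transcript scaled to its length and to all fragments mapped in the library, so levels can be compared between genes. Differences are taken after log2(FPKM + 1), a scale on which changes of genes with low FPKM come out too small. The mark for a call, higher or lower, was a difference of 1, that is 2-fold, and genes with at least 1 FPKM in any library compared were used. With 1 library per group there was no replicate spread, no test and no p-value, and the read depth behind the FPKM is unknown. Every difference below is therefore between these libraries.

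The genotype labels were taken as given, so "AID-null" and "wildtype" below mean the libraries labelled so. The Y-linked gene Eif2s3y stood at 274 and 184 FPKM in the libraries labelled AID-null and was listed at 0 in both labelled wildtype, and Xist stood at 1.78 and 0.99 FPKM in the AID-null 3-week culture and fibroblasts, against 149 and 456 FPKM in the wildtype ones. Genotype label, presence of Y genes and culture of origin cannot be told apart here. None of the 40 genes (0 of 40) lay on X or Y, and they were spread over 17 chromosomes in the GRCm38.p6 gene table.

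Markers of cell identity moved with the stage and partly with the label. The summed level of 8 pluripotency markers, Nanog and Esrrb first among them, was 6682 FPKM in the AID-null and 6838 FPKM in the wildtype 3-week culture, against 7.99 FPKM in AID-null and 4.53 FPKM in wildtype fibroblasts. Dppa5a was its largest part at 3 weeks, at 3264 FPKM in the AID-null and 3160 FPKM in the wildtype culture. Nanog stood at 265 and 347 FPKM and Esrrb at 174 and 414 FPKM in these 2 cultures, in the same order. The sum of 8 fibroblast markers, the collagen genes Col1a1 and Col1a2 among them, was 10167 FPKM in the AID-null and 2425 FPKM in the wildtype 3-week culture, against 77623 FPKM and 66908 FPKM in AID-null and wildtype fibroblasts. Dcn was its largest part at 3 weeks, at 2992 FPKM in the AID-null and 1246 FPKM in the wildtype culture. The sum of 10 macrophage markers, Csf1r and Adgre1 (listed as Emr1) among them, was 1434 FPKM in the AID-null and 421 FPKM in the wildtype 3-week culture, against 2836 FPKM and 1646 FPKM in AID-null and wildtype fibroblasts. Lyz2 was its largest part in the AID-null culture, at 903 FPKM, and Laptm5 in the wildtype culture, at 265 FPKM, where Laptm5 and Cd68 were higher than in wildtype fibroblasts. Of these 10, 5 were listed at 0 in the wildtype 3-week culture, Adgre1 among them, and 0 in the other libraries. The sum of 8 keratinocyte markers was 7.51 FPKM in the AID-null and 158 FPKM in the wildtype 3-week culture, and 17.4 FPKM and 19.4 FPKM in AID-null and wildtype fibroblasts. Of the keratin genes that begin that list, Krt5 stood at 0.55 FPKM in the AID-null and 1.04 FPKM in the wildtype 3-week culture, and Krt14 at 1.74 FPKM in the AID-null and 17.6 FPKM in the wildtype 3-week culture. Krt6b was the largest part of the sum in the wildtype culture, at 96.2 FPKM, and was listed at 0 in the AID-null one. The sum of 7 skeletal muscle markers was 147 FPKM and 211 FPKM in the AID-null and wildtype 3-week cultures, against 28.5 FPKM and 8.50 FPKM in the fibroblasts, with Myod1 listed at 0 in all 4 libraries and Myog at most 2.09 FPKM. Mylpf was the largest part of that sum at 3 weeks, at 95.4 FPKM in the AID-null and 188 FPKM in the wildtype culture. The part of these cell types in the results below was not tested.

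Most of the 40 genes were at least 2-fold higher after 3 weeks of reprogramming under both labels. Of the 40 genes, 29 (72.5%) in the AID-null comparison were at least 2-fold higher, against 21.3% of the 15076 genes compared, and 1 was at least 2-fold lower, against 17.6%. Under the wildtype label 34 of 40 (85.0%) were at least 2-fold higher, against 27.0% of 15196 genes, and 1 was at least 2-fold lower, against 17.7%. The median member was 1.93 higher in the AID-null and 2.87 higher in the wildtype comparison, where the median of all genes differed by −0.05 and 0.16. Under 3 other scalings of the libraries the median of all genes reached 0.14 in the AID-null comparison and lay at 0.12 to 0.32 in the wildtype comparison. Relative to the median of all genes, the members' median was 1.99 higher in the AID-null comparison and 2.70 higher in the wildtype comparison, as deposited and under each of these scalings.

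As deposited, in 34 of 40 genes both 3-week cultures lay above both fibroblast libraries. A single order of the libraries, with the wildtype 3-week culture highest, then the AID-null 3-week culture, then AID-null fibroblasts and wildtype fibroblasts lowest, was shown by 26 genes. The other orders were shown by 1 to 5 genes each, and the AID-null 3-week culture was the highest library in 7 genes. These orders were not counted over all genes, so they cannot be called particular to the 40. The median level of the 40 genes was 205 FPKM in the AID-null and 241 FPKM in the wildtype 3-week culture, against 43.3 FPKM in AID-null and 27.8 FPKM in wildtype fibroblasts. The median of all genes with at least 1 FPKM was 41.5 and 45.0 FPKM in the AID-null and wildtype 3-week cultures, and 47.8 and 49.6 FPKM in AID-null and wildtype fibroblasts. Above that median lay 33 of the 40 genes in each 3-week culture, 20 in AID-null fibroblasts and 10 in wildtype fibroblasts. Together the 40 genes took 0.518% and 0.673% of summed FPKM in the AID-null and wildtype 3-week cultures, against 0.188% and 0.170% in AID-null and wildtype fibroblasts.

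**Figure D1:**
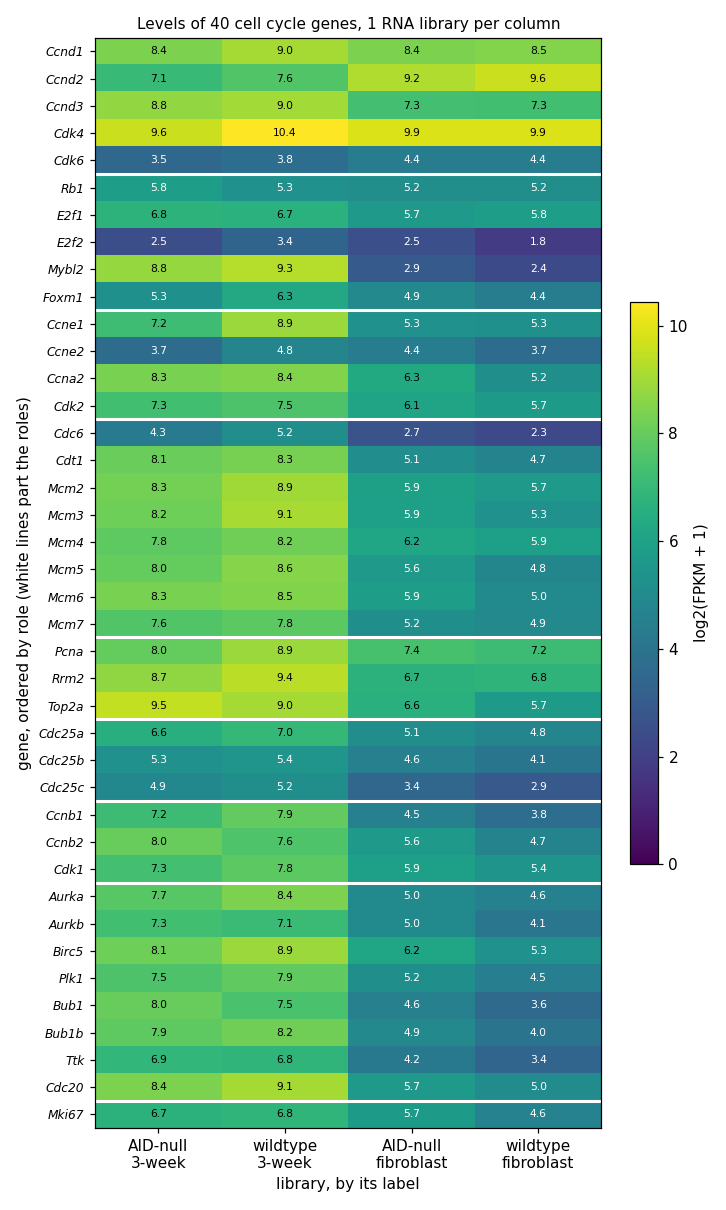
Level of each of the 40 genes, as log2(FPKM + 1) printed and coloured, in the 4 RNA libraries (columns, 1 library each, named by label); white lines part the roles. The 3-week columns are brighter than the fibroblast columns in 34 genes, while Ccnd2 and Cdk6 are darker at 3 weeks and Cdk4 is bright in all 4 columns. How many of all genes lie higher in both 3-week libraries was not counted.

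The 5 genes of D-type cyclins and their kinases, which act in G1, went in different directions, with 1 at least 2-fold higher, 1 lower and 3 between under each label. Ccnd2, the cyclin D2 gene, stood at 134 FPKM in the AID-null and 194 FPKM in the wildtype 3-week culture, against 590.4 FPKM in AID-null and 788 FPKM in wildtype fibroblasts. It was the single member at least 2-fold lower at 3 weeks, at −2.13 in the AID-null comparison and −2.02 in the wildtype comparison. Ccnd3, which encodes cyclin D3, went the other way, at 432 FPKM in the AID-null and 516 FPKM in the wildtype 3-week culture, against 161 FPKM in AID-null and 156 FPKM in wildtype fibroblasts. Its differences were 1.41 in the AID-null comparison and 1.72 in the wildtype comparison. Ccnd1, the cyclin D1 gene, stood at 336 FPKM in the AID-null and 527 FPKM in the wildtype 3-week culture, against 337 FPKM in AID-null and 367 FPKM in wildtype fibroblasts. In neither comparison did cyclin D1 differ by 2-fold, and the sign of its AID-null difference, −0.00 as deposited, became positive under each of the 3 other scalings. Their summed level was 902 FPKM in the AID-null and 1237 FPKM in the wildtype 3-week culture, against 1089 FPKM in AID-null and 1311 FPKM in wildtype fibroblasts. The makeup of that sum differed more than its size. Cyclin D2 made up 14.8% and 15.7% of it in the AID-null and wildtype 3-week cultures, against 54.2% and 60.1% in AID-null and wildtype fibroblasts. Cyclin D3 made up 47.9% and 41.7% at 3 weeks, against 14.8% and 11.9% in the fibroblasts, in the same order of labels.

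Cdk4, the main kinase partner of the D cyclins, was the highest of the 40 genes in each of the 4 libraries, at 790.3 FPKM in the AID-null and 1395 FPKM in the wildtype 3-week culture, against 949 FPKM in AID-null and 964 FPKM in wildtype fibroblasts. Its differences at 3 weeks were −0.26 in the AID-null comparison and 0.53 in the wildtype comparison, both under 2-fold. Cdk6, the other D cyclin kinase, stood far lower, at 10.5 FPKM in the AID-null and 12.8 FPKM in the wildtype 3-week culture, against 19.7 FPKM in AID-null and 19.8 FPKM in wildtype fibroblasts. It was below its fibroblast level in both cultures, at −0.85 in the AID-null comparison and −0.59 in the wildtype comparison, and made up at most 2.03% of the summed level of Cdk4 and Cdk6 in any library.

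**Figure D2:**
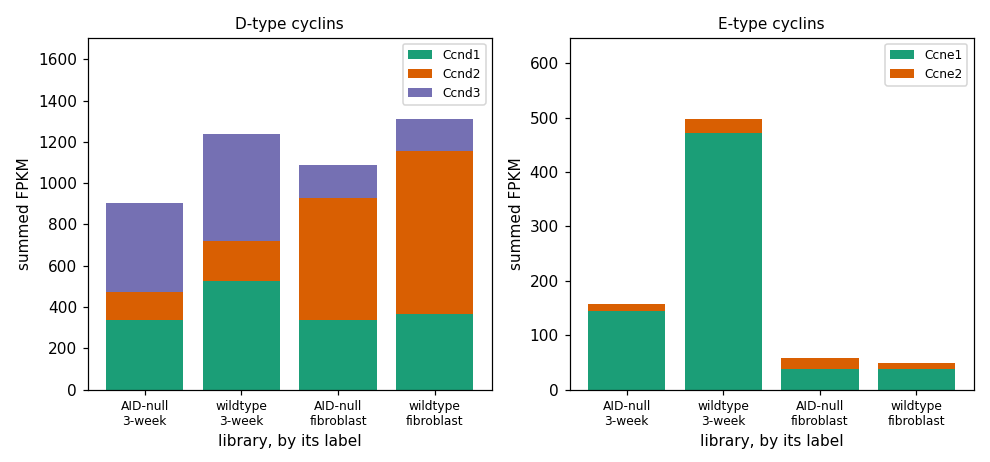
Summed FPKM of the D-type cyclins (left) and the E-type cyclins (right) in the 4 RNA libraries, 1 bar per library with the genes stacked. Cyclin D2 is the largest part of the fibroblast bars and the smallest part of the 3-week bars, and the cyclin E1 bar of the wildtype 3-week culture, 472 FPKM, stands above the 3 others.

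The E2F and pocket protein group held both the largest change of the 40 genes and some of the smallest. Mybl2, which encodes B-Myb, a transcription factor of late S phase and G2, stood at 448 FPKM in the AID-null and 624 FPKM in the wildtype 3-week culture, against 6.72 FPKM in AID-null and 4.10 FPKM in wildtype fibroblasts. It was 5.86 higher in the AID-null and 6.94 higher in the wildtype comparison, the largest difference of any member in each. Foxm1, a transcription factor gene of the G2 and M phases, stood at 37.4 FPKM in the AID-null and 78.6 FPKM in the wildtype 3-week culture, against 29.1 FPKM in AID-null and 19.9 FPKM in wildtype fibroblasts. Its AID-null difference was 0.35 and its wildtype difference 1.93, so it passed the 2-fold mark under the wildtype label alone, and the difference between these changes was −1.58. E2f1, an activating E2F factor, stood at 108 FPKM in the AID-null and 102 FPKM in the wildtype 3-week culture, against 49.7 FPKM in AID-null and 55.9 FPKM in wildtype fibroblasts. Its difference was 1.11 in the AID-null comparison and 0.86 in the wildtype comparison, the reverse of the usual order of the labels. E2f2, another activating factor, was the lowest of the 40 genes in each library, at 4.62 FPKM in the AID-null and 9.26 FPKM in the wildtype 3-week culture, against 4.79 FPKM in AID-null and 2.54 FPKM in wildtype fibroblasts. Rb1, the gene of the Rb protein that holds E2F in check, stood at 54.6 FPKM in the AID-null and 37.8 FPKM in the wildtype 3-week culture, against 35.0 FPKM in AID-null and 35.0 FPKM in wildtype fibroblasts. In fibroblasts the Rb1 levels were alike under both labels, and at 3 weeks Rb1 differed from its fibroblast level by 0.63 in the AID-null comparison and 0.11 in the wildtype comparison.

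The E and A cyclins, which act with Cdk2 at the entry into and during S phase, were mostly higher at 3 weeks. Ccne1, the cyclin E1 gene, stood at 145 FPKM in the AID-null and 472 FPKM in the wildtype 3-week culture, against 38.2 FPKM in AID-null and 37.4 FPKM in wildtype fibroblasts. It was 1.90 higher in the AID-null and 3.62 higher in the wildtype comparison from fibroblast levels that were nearly equal under both labels. Ccne2, the cyclin E2 gene, stood at 11.9 FPKM in the AID-null and 26.1 FPKM in the wildtype 3-week culture, against 20.3 FPKM in AID-null and 11.9 FPKM in wildtype fibroblasts. Cyclin E2 was lower at 3 weeks under the AID-null label, at −0.72, and higher under the wildtype label, at 1.07. Cyclin E1 made up 92.4% and 94.8% of the summed level of both E cyclins in the AID-null and wildtype 3-week cultures, against 65.3% and 75.9% in AID-null and wildtype fibroblasts. Ccna2, which encodes cyclin A2, stood at 323 FPKM in the AID-null and 348 FPKM in the wildtype 3-week culture, against 79.9 FPKM in AID-null and 35.6 FPKM in wildtype fibroblasts. Cdk2, the kinase partner of both cyclin types, stood at 154 FPKM in the AID-null and 183 FPKM in the wildtype 3-week culture, against 68.4 FPKM in AID-null and 50.6 FPKM in wildtype fibroblasts. Both genes were at least 2-fold higher at 3 weeks under both labels, cyclin A2 by 2.00 and 3.26 and Cdk2 by 1.16 and 1.83 in the AID-null and wildtype comparisons.

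All 8 origin licensing genes were at least 2-fold higher at 3 weeks under both labels, with medians of 2.33 in the AID-null comparison and 3.38 in the wildtype comparison. Licensing loads the Mcm2 to Mcm7 helicase onto origins in G1. Its loading factors Cdc6 and Cdt1 differed widely in level. Cdc6 stood at 19.4 FPKM in the AID-null and 34.6 FPKM in the wildtype 3-week culture, against 5.41 FPKM in AID-null and 3.95 FPKM in wildtype fibroblasts. Cdt1 stood at 267 FPKM in the AID-null and 319 FPKM in the wildtype 3-week culture, against 33.6 FPKM in AID-null and 24.4 FPKM in wildtype fibroblasts. Cdt1 had the largest difference of the group in the AID-null comparison, 2.95, and was 3.66 higher in the wildtype comparison. The 6 helicase genes encode subunits of a single ring, and they lay within a narrow range in each library. The ratio of the highest to the lowest was 1.64 in the AID-null culture at 3 weeks and 2.41 in the wildtype culture, and 1.94 in AID-null and 2.20 in wildtype fibroblasts. Mcm2 stood at 307 FPKM in the AID-null and 492 FPKM in the wildtype 3-week culture, against 60.5 FPKM in AID-null and 49.5 FPKM in wildtype fibroblasts. Mcm3 stood at 285 FPKM in the AID-null and 535 FPKM in the wildtype 3-week culture, against 58.6 FPKM in AID-null and 38.0 FPKM in wildtype fibroblasts. Mcm3 differed by 2.26 in the AID-null comparison and by 3.78 in the wildtype comparison, where it was the largest of the 8 genes. Mcm4, the highest of the 6 in both fibroblast libraries, stood at 229 FPKM in the AID-null and 292 FPKM in the wildtype 3-week culture, against 70.0 FPKM in AID-null and 58.6 FPKM in wildtype fibroblasts. Mcm5 stood at 249 FPKM in the AID-null and 378 FPKM in the wildtype 3-week culture, against 48.7 FPKM in AID-null and 26.6 FPKM in wildtype fibroblasts. It was 2.33 higher in the AID-null and 3.78 higher in the wildtype comparison. Mcm6 stood at 323 FPKM in the AID-null and 349 FPKM in the wildtype 3-week culture, against 57.4 FPKM in AID-null and 30.4 FPKM in wildtype fibroblasts. Mcm7 stood at 196 FPKM in the AID-null and 222 FPKM in the wildtype 3-week culture, against 36.1 FPKM in AID-null and 29.0 FPKM in wildtype fibroblasts. In all 6 subunits the order of the libraries as deposited was the most common of the 40 genes, with the wildtype 3-week culture highest and wildtype fibroblasts lowest. Under upper-quartile and median-of-ratios scaling Mcm6 was instead slightly higher in the AID-null than in the wildtype 3-week culture. So was Mcm7 under median-of-ratios scaling.

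Genes of DNA synthesis and chromosome topology were higher at 3 weeks. Pcna, the sliding clamp of the replication polymerases, stood at 249 FPKM in the AID-null and 464 FPKM in the wildtype 3-week culture, against 169.8 FPKM in AID-null and 143 FPKM in wildtype fibroblasts. Rrm2, a subunit of the ribonucleotide reductase that makes DNA building blocks, stood at 419 FPKM in the AID-null and 660.4 FPKM in the wildtype 3-week culture, against 104 FPKM in AID-null and 109 FPKM in wildtype fibroblasts. Top2a, the topoisomerase that untangles replicated chromosomes, stood at 711 FPKM in the AID-null and 524 FPKM in the wildtype 3-week culture, against 97.7 FPKM in AID-null and 50.04 FPKM in wildtype fibroblasts. Top2a was the second-ranked member after Cdk4 in the AID-null 3-week culture. Pcna stayed under the 2-fold mark in the AID-null comparison, at 0.55, and passed it in the wildtype comparison, at 1.69, while Rrm2 and Top2a passed it in both, Rrm2 by 2.00 and 2.59 and Top2a by 2.85 and 3.36 in the AID-null and wildtype comparisons.

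The Cdc25 phosphatases activate cyclin-dependent kinases by removing inhibitory phosphates. Cdc25a, which acts from G1 onward, stood at 94.8 FPKM in the AID-null and 124 FPKM in the wildtype 3-week culture, against 34.3 FPKM in AID-null and 26.2 FPKM in wildtype fibroblasts. Cdc25b stood at 37.8 FPKM in the AID-null and 42.6 FPKM in the wildtype 3-week culture, against 22.5 FPKM in AID-null and 15.6 FPKM in wildtype fibroblasts. Cdc25c stood at 28.1 FPKM in the AID-null and 34.8 FPKM in the wildtype 3-week culture, against 9.85 FPKM in AID-null and 6.47 FPKM in wildtype fibroblasts. In the AID-null comparison Cdc25a and Cdc25c were at least 2-fold higher at 3 weeks, by 1.44 and 1.42, and Cdc25b, at 0.72, was not. In the wildtype comparison all 3 were, by 1.39 to 2.26.

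The kinase complex that drives mitosis was at least 2-fold higher at 3 weeks under both labels in all 3 of its genes. Cdk1, the mitotic kinase, stood at 161 FPKM in the AID-null and 224 FPKM in the wildtype 3-week culture, against 59.4 FPKM in AID-null and 41.1 FPKM in wildtype fibroblasts. Ccnb1, the cyclin B1 gene, stood at 144 FPKM in the AID-null and 244 FPKM in the wildtype 3-week culture, against 22.1 FPKM in AID-null and 12.9 FPKM in wildtype fibroblasts. Ccnb2, the cyclin B2 gene, stood at 257 FPKM in the AID-null and 189.8 FPKM in the wildtype 3-week culture, against 48.4 FPKM in AID-null and 24.8 FPKM in wildtype fibroblasts. The B cyclins differed in which 3-week culture was higher: the AID-null culture was lower than the wildtype culture in cyclin B1, at −0.76, and higher in cyclin B2, at 0.43. Cyclin B1 made up 35.9% of their summed level in the AID-null 3-week culture and 56.2% in the wildtype 3-week culture, against 31.4% in AID-null and 34.1% in wildtype fibroblasts.

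All 8 genes of mitotic kinases, the spindle checkpoint and mitotic exit were at least 2-fold higher at 3 weeks under both labels. Their medians were 2.71 in the AID-null comparison and 3.70 in the wildtype comparison, the highest of the role groups in each. Aurka, the Aurora A kinase of spindle poles, stood at 214 FPKM in the AID-null and 332 FPKM in the wildtype 3-week culture, against 31.2 FPKM in AID-null and 22.8 FPKM in wildtype fibroblasts. Aurkb, the Aurora B kinase of the chromosomal passenger complex, stood at 157 FPKM in the AID-null and 136 FPKM in the wildtype 3-week culture, against 30.7 FPKM in AID-null and 16.3 FPKM in wildtype fibroblasts. Birc5, which encodes survivin of the same complex, stood at 278 FPKM in the AID-null and 466 FPKM in the wildtype 3-week culture, against 70.1 FPKM in AID-null and 37.8 FPKM in wildtype fibroblasts. Within this complex Aurkb was higher in the AID-null than in the wildtype 3-week culture, by 0.20, and Birc5 was lower, at −0.74. Plk1, the polo-like kinase of mitotic entry, stood at 185 FPKM in the AID-null and 238 FPKM in the wildtype 3-week culture, against 35.8 FPKM in AID-null and 21.4 FPKM in wildtype fibroblasts. The checkpoint kinase genes Bub1 and Ttk were also slightly higher in the AID-null than in the wildtype culture. Bub1 stood at 258 FPKM in the AID-null and 175 FPKM in the wildtype 3-week culture, against 22.5 FPKM in AID-null and 11.1 FPKM in wildtype fibroblasts. Ttk, which encodes the Mps1 kinase, stood at 119 FPKM in the AID-null and 113 FPKM in the wildtype 3-week culture, against 17.7 FPKM in AID-null and 9.47 FPKM in wildtype fibroblasts. Bub1b, which encodes the checkpoint protein BubR1, stood at 233 FPKM in the AID-null and 290.1 FPKM in the wildtype 3-week culture, against 29.0 FPKM in AID-null and 15.2 FPKM in wildtype fibroblasts. Bub1 had the largest AID-null difference of the group, 3.47, and Bub1b the largest wildtype difference, 4.17. Cdc20, the activator of the anaphase-promoting complex that the checkpoint holds back, stood at 338 FPKM in the AID-null and 529.6 FPKM in the wildtype 3-week culture, against 49.9 FPKM in AID-null and 31.5 FPKM in wildtype fibroblasts. Mki67, the marker of dividing cells that coats mitotic chromosomes, stood at 103 FPKM in the AID-null and 112 FPKM in the wildtype 3-week culture, against 51.3 FPKM in AID-null and 23.7 FPKM in wildtype fibroblasts. Mki67 was 1.00 higher in the AID-null comparison, just under the 2-fold mark and past it under each of the 3 other scalings, and 2.19 higher in the wildtype comparison.

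**Figure D3:**
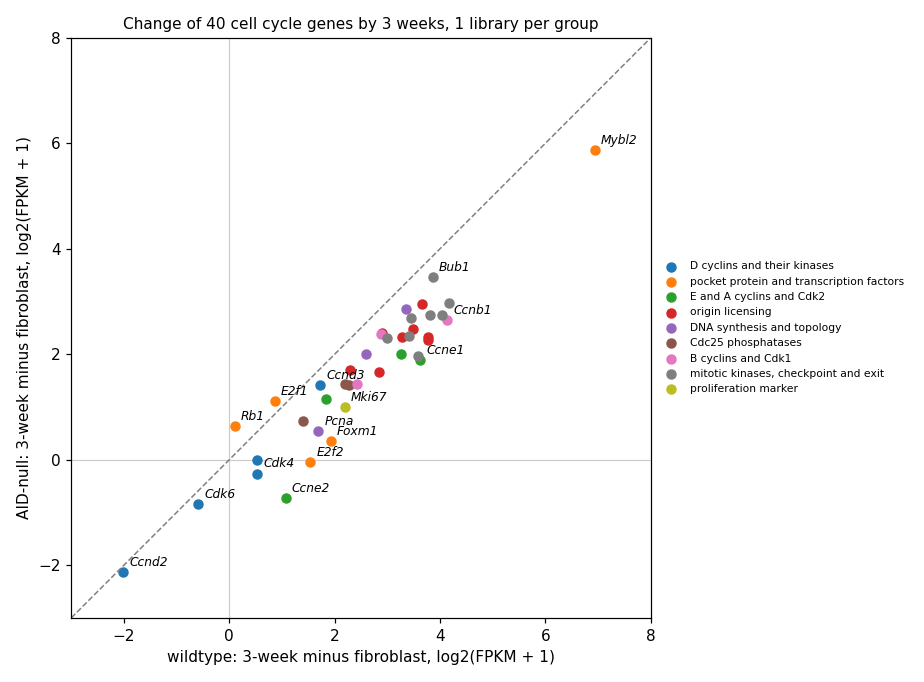
Difference between the 3-week culture and fibroblasts on the log2(FPKM + 1) scale for each of the 40 genes, with the AID-null comparison on the vertical and the wildtype comparison on the horizontal axis, coloured by role; the dashed line marks equal differences. All but 2 points, Rb1 and E2f1, lie below the line, and Ccnd2 and Cdk6 lie below 0 on both axes. Of all 15624 genes compared, which are not drawn, 40.5% would lie above the line.

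Promoter sequence was set beside these values, because genes of replication and of mitosis are known to carry different control elements. E2F sites mark genes of the G1 to S transition, and the cell cycle homology region (CHR) with CCAAT boxes marks genes of G2 and mitosis. The RefSeq promoter table (GRCm38.p6, 250 bases before to 50 after the start) held 34 promoters of 31 of the 40 genes. The other members were Ccna2, Ccnd1, Ccnd2, Ccne2, Cdc25c, Mcm4, Aurkb, Foxm1 and Rb1. The letters searched on both strands were TTTCCCGC, TTTCGCGC, TTTGCCGC and TTTGGCGC for E2F, TTTGAA and TTCGAA for CHR, and CCAAT. Matches to different motifs overlapped 1 time in the member promoters.

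An E2F match was in 10 of the 34 member promoters (29.4%), against 2.26% of all 32851 promoters and 3.59% of the 13814 promoters of genes with at least 1 FPKM in any library. A CHR match was in 14 (41.2%), against 19.2% and 13.9%, and a CCAAT match in 25 (73.5%), against 37.4% and 37.6%. CHR and CCAAT stood together in 14 (41.2%), against 7.52% and 5.70%. The median GC content was 60.3% in member promoters, 52.7% in all promoters and 60.0% in those of genes with at least 1 FPKM. E2F and CHR matches differed by role, while CCAAT did not separate replication from mitosis. The 8 origin licensing promoters belong to 7 genes, with Mcm7 at more than 1 start and Mcm4 absent. Of these promoters 6 had an E2F match, 2 a CHR match and 6 a CCAAT match. Of 7 promoters of mitotic kinases, checkpoint and exit genes 0 had an E2F match and 6 had both CHR and CCAAT, Birc5 being the exception with none of the 3 motifs. Of the 3 DNA synthesis and topology promoters (Pcna, Rrm2 and Top2a) 0 had an E2F match, 1 a CHR match and 3 a CCAAT match. The 4 promoters of D cyclins and their kinases belong to 3 genes, without Ccnd1 and Ccnd2. In this group, which had the smallest median difference at 3 weeks under both labels, 0 promoters had an E2F or CHR match and 1 had a CCAAT match. These are matches of letters and show neither binding nor a cause of the levels.

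The 160 bases before the start of 6 members are printed 5′ to 3′ on the gene's strand, with matches to the E2F, CHR and CCAAT letters in capitals, to show the licensing genes with E2F letters (Mcm6, Mcm5 and Cdc6), a gene with all 3 motifs (Cdk1), a mitotic gene with CHR and CCAAT (Cdc20), and the member highest in each library, which has none (Cdk4). All are from RefSeq, build GRCm38.p6.
Mcm6, chr1:128359706-128359865, minus strand: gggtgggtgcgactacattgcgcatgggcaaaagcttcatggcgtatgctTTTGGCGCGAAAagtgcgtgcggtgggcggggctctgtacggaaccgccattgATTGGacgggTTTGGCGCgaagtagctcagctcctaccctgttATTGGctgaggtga
Mcm5, chr8:75109349-75109508, plus strand: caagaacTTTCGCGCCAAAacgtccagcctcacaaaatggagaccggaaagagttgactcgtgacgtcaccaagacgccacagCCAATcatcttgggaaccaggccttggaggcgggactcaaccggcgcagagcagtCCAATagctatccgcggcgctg
Cdc6, chr11:98907991-98908150, plus strand: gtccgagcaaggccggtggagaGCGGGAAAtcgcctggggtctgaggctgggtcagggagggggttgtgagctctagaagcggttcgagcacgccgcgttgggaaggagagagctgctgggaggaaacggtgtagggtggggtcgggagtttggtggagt
Cdk1, chr10:69352913-69353072, minus strand: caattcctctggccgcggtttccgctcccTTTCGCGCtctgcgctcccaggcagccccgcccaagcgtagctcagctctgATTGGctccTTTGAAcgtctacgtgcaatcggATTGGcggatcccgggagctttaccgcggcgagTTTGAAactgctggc
Cdc20, chr4:118437344-118437503, minus strand: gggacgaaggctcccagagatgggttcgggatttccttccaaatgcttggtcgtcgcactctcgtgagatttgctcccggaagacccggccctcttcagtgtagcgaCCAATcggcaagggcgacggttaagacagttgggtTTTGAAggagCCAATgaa
Cdk4, chr10:127063375-127063534, plus strand: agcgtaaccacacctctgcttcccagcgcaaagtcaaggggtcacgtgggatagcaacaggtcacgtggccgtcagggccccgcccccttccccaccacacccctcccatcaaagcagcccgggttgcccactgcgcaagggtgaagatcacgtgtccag
The Mcm6 window held 3 E2F and 2 CCAAT matches, a pair of the E2F matches overlapping, and the Mcm5 window 2 overlapping E2F and 2 CCAAT matches. The Cdk1 window held 1 E2F, 2 CHR and 2 CCAAT matches, and the Cdc20 window 1 CHR and 2 CCAAT matches.

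**Figure D4:**
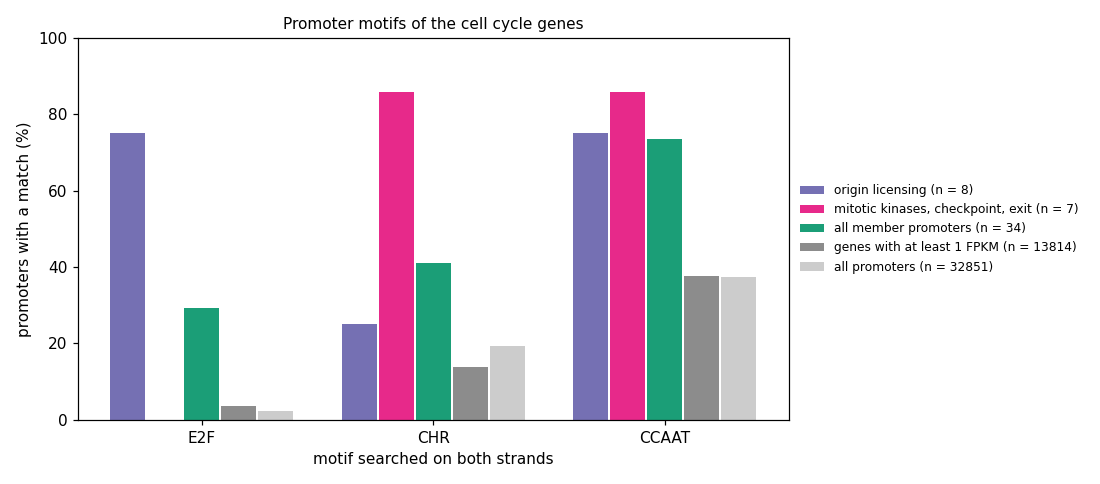
Percent of promoters with a match to the E2F, CHR or CCAAT letters on either strand, for the origin licensing genes, the mitotic kinase, checkpoint and exit genes, all 34 member promoters, promoters of genes with at least 1 FPKM, and all promoters. E2F matches are in 6 of 8 licensing and 0 of 7 mitotic promoters, and CHR matches in 2 of 8 and 6 of 7. The 8 licensing promoters belong to 7 genes.

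Further genes of the pathway were taken from lists by role. Of all genes 21.3% were at least 2-fold higher at 3 weeks in the AID-null comparison and 27.0% in the wildtype comparison. Lower were 17.6% and 17.7%. Of 39 further replication genes 24 were at least 2-fold higher at 3 weeks in the AID-null comparison and 36 in the wildtype comparison, and 0 were lower in either, with medians of 1.31 and 2.14. Orc1, the largest subunit of the origin recognition complex, stood at 70.9 FPKM in the AID-null and 105 FPKM in the wildtype 3-week culture, against 5.76 FPKM in AID-null and 4.46 FPKM in wildtype fibroblasts. Orc2 of the same complex stood at 111 FPKM in the AID-null and 215 FPKM in the wildtype 3-week culture, against 70.7 FPKM in AID-null and 66.0 FPKM in wildtype fibroblasts. Orc2 differed by 0.64 in the AID-null comparison and passed the 2-fold mark in the wildtype comparison alone, at 1.69. Of 32 further mitosis genes 30 were higher by at least 2-fold in the AID-null comparison and 31 in the wildtype comparison, with medians of 1.89 and 2.99. The spindle checkpoint gene Mad2l1 stood at 151 FPKM in the AID-null and 213 FPKM in the wildtype 3-week culture, against 53.0 FPKM in AID-null and 35.5 FPKM in wildtype fibroblasts. Bub3, its partner in the checkpoint, was under 2-fold in both comparisons, at 216 FPKM in the AID-null and 312 FPKM in the wildtype 3-week culture, against 215 FPKM in AID-null and 215 FPKM in wildtype fibroblasts.

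Regulators outside these sets varied. Their counts stand beside shares of all genes of 21.3% and 27.0% higher, and 17.6% and 17.7% lower, in the AID-null and wildtype comparisons. Of 13 genes of the anaphase-promoting complex and its regulators 1 was higher and 0 lower in the AID-null comparison, and 2 were higher and 1 lower in the wildtype comparison, with medians of −0.20 and 0.04. The lower gene of the wildtype comparison, Cdc16, was under 2-fold with equal-sum scaling, and the wildtype median was −0.00 with median-of-ratios scaling. The subunit gene Anapc1 stood at 96.8 FPKM in the AID-null and 142 FPKM in the wildtype 3-week culture, against 154 FPKM in AID-null and 170.2 FPKM in wildtype fibroblasts, and Anapc2 at 189 FPKM and 166 FPKM in the AID-null and wildtype 3-week cultures, against 217 FPKM and 233 FPKM in the fibroblasts. Of 14 further E2F, DP, pocket protein and MuvB genes 1 was higher in the AID-null comparison, against 21.3% of all genes, and 5 in the wildtype comparison, against 27.0%. The AID-null count was 2 under a pseudocount of 0.1 FPKM and under each of the 3 other scalings. E2f3, an activating factor, stood at 26.2 FPKM in the AID-null and 69.2 FPKM in the wildtype 3-week culture, against 47.9 FPKM in AID-null and 44.3 FPKM in wildtype fibroblasts. E2f4, a repressing factor, stood at 200.2 FPKM in the AID-null and 329 FPKM in the wildtype 3-week culture, against 99.3 FPKM in AID-null and 96.8 FPKM in wildtype fibroblasts. Of 6 S and G2 checkpoint kinase genes found in the files 5 were higher in the AID-null comparison and 4 in the wildtype comparison. The DNA damage kinase gene Atm differed by 0.01 in the AID-null comparison and 0.81 in the wildtype comparison, and Atr, a kinase of stalled replication, stood at 71.8 FPKM in the AID-null and 54.1 FPKM in the wildtype 3-week culture, against 28.4 FPKM in AID-null and 28.0 FPKM in wildtype fibroblasts.

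The inhibitors of cyclin-dependent kinases went in different directions. Of 7 such genes 1 was at least 2-fold higher and 2 were lower at 3 weeks in each comparison, with medians of 0.18 in the AID-null comparison and −0.68 in the wildtype comparison. Of all genes 21.3% were higher and 17.6% lower in the AID-null comparison, and 27.0% and 17.7% in the wildtype comparison. Counts this small lie near those shares. The 2 lower in the AID-null comparison, Cdkn2b at −1.08 and Cdkn2c at −1.01, were under 2-fold with each of the 3 other scalings, which left 0. Cdkn1a, which encodes p21, a target of p53, stood at 739.5 FPKM in the AID-null and 754 FPKM in the wildtype 3-week culture, against 651 FPKM in AID-null and 1206 FPKM in wildtype fibroblasts. Cdkn1b, which encodes p27, stood at 151 FPKM in the AID-null and 71.5 FPKM in the wildtype 3-week culture, against 149 FPKM in AID-null and 132 FPKM in wildtype fibroblasts. The p21 gene was lower in AID-null than in wildtype fibroblasts, at −0.89, and the p27 gene was higher in the AID-null than in the wildtype 3-week culture, by 1.06.

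The labels were then compared within each stage. In fibroblasts the median member was 0.52 higher in the AID-null than in the wildtype library, where the median of all 13788 genes compared differed by −0.03. Of the 40 genes 33 (82.5%) were above 0, against 43.9% of all genes, and Cdk4, Cdk6 and Rb1, at −0.00 to −0.02 as deposited, were also above 0 under each of the 3 other scalings. The differences were small in size. Only Ccna2, at 1.14, and Mki67, at 1.08, reached 2-fold, which makes 2 of 40 (5.0%) against 4.26% of all genes, and 0 were 2-fold lower, against 1.34%. The share of higher members was near the background as deposited, while under upper-quartile scaling Top2a and Bub1 also passed, which made 4 of 40 against 4.51% of all genes. The mitotic kinase, checkpoint and exit genes had a median difference of 0.85 with a range of 0.44 to 0.96, the licensing genes 0.41, and the D cyclins and their kinases −0.02. Beside this, 9 of 10 macrophage markers were at least 2-fold higher in AID-null fibroblasts, with a median of 1.76. So were 5 of 6 skeletal muscle markers compared, with a median of 1.72. Of these, Myog, Actc1, Myh3 and Tnnt1 were near the floor, at 2.02 to 3.25 FPKM in AID-null and 0 to 0.22 FPKM in wildtype fibroblasts. They entered the comparison only through the library where they were higher. With a minimum of 5 FPKM, 2 muscle markers were compared and 1 was higher. The part of the macrophage and muscle markers in the difference was not tested.

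At 3 weeks the direction was the opposite and the size smaller. The median member was 0.37 lower in the AID-null than in the wildtype culture (−0.37), where the median of all 15204 genes differed by −0.18, which leaves −0.19 relative to all genes. Below 0 lay 33 of the 40 genes as deposited. Above 0 lay 17.5% of the 40 genes, against 40.04% of all genes, so most genes in the files were not above 0 either. Of the 33, Ccna2, Mcm6 and Mki67 were above 0 under upper-quartile and median-of-ratios scaling, and Mcm7 and Cdc25b under median-of-ratios scaling. Those at least 2-fold lower were Ccne1, at −1.70, Ccne2, at −1.07, and Foxm1, at −1.05, which makes 3 of 40 (7.5%) against 11.6% of all genes, and 0 were 2-fold higher, against 9.76%. Both shares are at or below the background. Under upper-quartile and median-of-ratios scaling 1 of the 3, Ccne1, reached 2-fold, and Foxm1 did not under equal-sum scaling either. The split of all genes was 12.1% higher and 8.64% lower under upper-quartile scaling, and 12.5% higher and 7.89% lower under median-of-ratios scaling. Higher in the AID-null culture were Rb1, E2f1, Top2a, Ccnb2, Aurkb, Bub1 and Ttk, by 0.07 to 0.56. The AID-null culture also had the higher sum of fibroblast markers, with 7 of 8 at least 2-fold higher and a median of 2.31, and of macrophage markers, with 8 of 10 higher and a median of 3.69. The pluripotency markers differed by a median of −0.17, with 1 of 8, Esrrb at −1.25, at least 2-fold lower and 0 higher. Of 7 keratinocyte markers compared 5 were at least 2-fold lower in the AID-null culture and 0 higher. Among them Krt6a, Krt6b, Krt1 and Ivl were listed at 0 in the AID-null culture. They entered the comparison only through the wildtype culture, which fixed their direction. Krt1 and Ivl were near the floor there, at 1.19 and 3.09 FPKM. The part of any of these markers in the cell cycle differences was not tested.

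**Figure D5:**
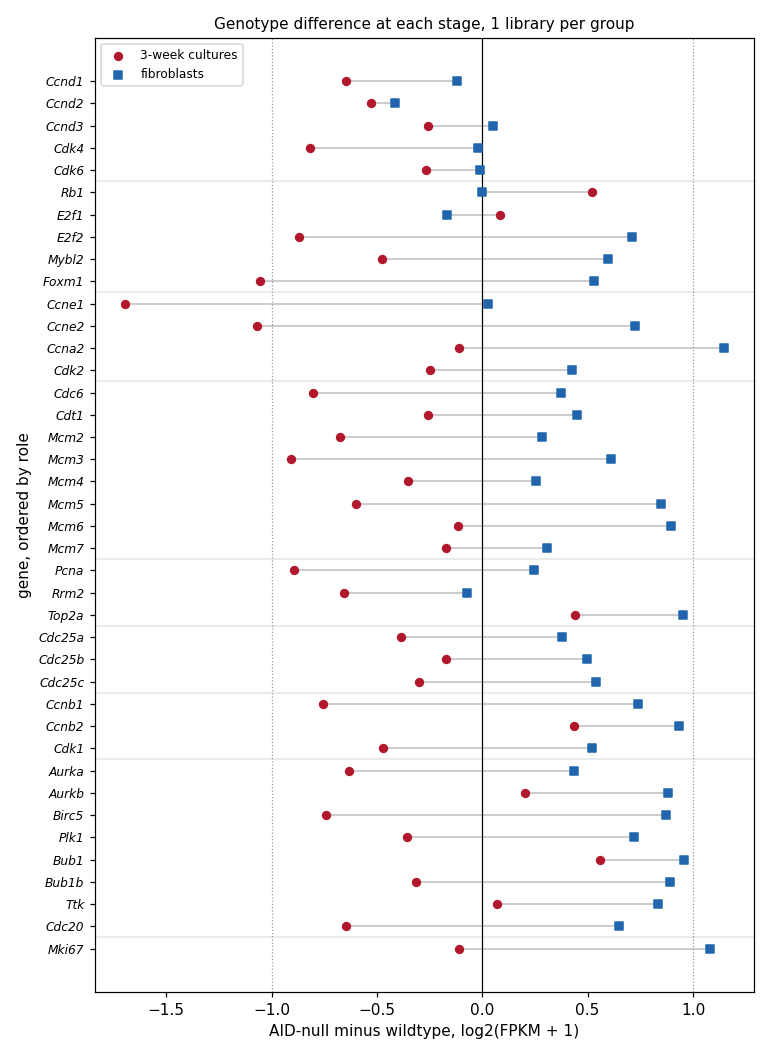
AID-null minus wildtype difference on the log2(FPKM + 1) scale for each of the 40 genes, between the 3-week cultures (red circles) and between the fibroblasts (blue squares), 1 library per group; dotted lines mark 2-fold. Most squares lie right of 0 and most circles left of it, with 28 genes higher in AID-null fibroblasts and lower in the AID-null 3-week culture. The share of all genes with that pattern was not counted.

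The 3-week change was smaller under the AID-null label for most of the 40 genes. Taken as AID-null change minus wildtype change, the median over the 40 genes was −0.90, where the median of all 15624 genes was −0.18. Of the 40 genes 18 (45.0%) were at least 2-fold lower by this measure, against 13.9% of all genes, and 0 were 2-fold higher, against 9.68%. Of the 18, Mybl2, Mcm6, Aurka and Plk1 fell short of 2-fold under upper-quartile and median-of-ratios scaling, and Pcna under median-of-ratios scaling. Mcm6 also fell short under equal-sum scaling. Under median-of-ratios scaling the split of all genes was 12.2% higher and 10.4% lower, and the members' median relative to all genes was −0.71, against −0.72 as deposited. Cyclins E2 and E1 had the most negative values, −1.79 and −1.72, followed by Birc5 at −1.62. The E and A cyclins and Cdk2 had a median of −1.49, the mitotic kinase, checkpoint and exit genes −1.07, the licensing genes −0.98, and the D cyclins and their kinases −0.31. Rb1, at 0.52, and E2f1, at 0.25, were the only members above 0 as deposited, and Ccnd2, at −0.11, was also above 0 under median-of-ratios scaling. Of all genes 40.5% were above 0 as deposited, so most genes were not above 0 either. The change under each label uses its own fibroblast library, and for Mki67, Ccna2 and Mcm6 most of the value came from the fibroblasts, where they differed by 1.08, 1.14 and 0.89, against −0.11, −0.11 and −0.11 at 3 weeks. For Ccne1 it came from the 3-week cultures, at −1.70 against 0.03 in fibroblasts. Of the further lists, 11 of 39 replication genes, 14 of 32 mitosis genes and 0 of 7 kinase inhibitors were at least 2-fold lower by the same measure. Under median-of-ratios scaling 6 replication and 6 mitosis genes were, against 10.4% of all genes. Under upper-quartile scaling 7 replication genes were, against 11.5% of all genes, and the mitosis count is not given here. The kinase inhibitors had a median of 0.86 by this measure as deposited. They ran from −0.81 for Cdkn1c to 0.96 for Cdkn2a, the highest just under the 2-fold mark.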

How the data were processed

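RNA of 4 libraries was analysed, 1 per genotype label and stage, grouped by the sample titles. The deposited values are FPKM per gene, normalised by the authors. TopHat and Cufflinks with build mm9 are named in the submitters' processing notes, without versions, annotation or filters, which are not given in the sources used here. FPKM summed to 1708869 to 2012350 per library. Ratios of low FPKM between libraries shared no common step (at most 2.09% of genes in any log2 bin 0.02 wide), so the depth is unknown and count models were not applied. Differences of log2(FPKM + 1) were computed in Python 3.11.15 with pandas 2.3.3 on all genes, with a minimum of 1 FPKM in any library compared and a 2-fold mark, and counting and scaling were tested on simulated data. Alternatives were a pseudocount of 0.1 FPKM, no minimum or 5 FPKM, upper-quartile, median-of-ratios and equal-sum scaling, and a 1.5-fold mark. All 40 members were named, and of each further list the first 2 genes in list order. Of 199 listed genes 198 were found, 1 by an older symbol. The members and lists were chosen with earlier results of these data known. RRBS libraries (10) were not analysed here. The level of the targeted gene is not reported here.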

Additional observations from a re-analysis of the deposited data

Results flagged for a closer look

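A difference between AID-null and wildtype libraries that has opposite signs in the 3-week cultures and in the fibroblasts, and lies at least 2-fold apart between them, was found for 18 of the 40 genes. It was not tested, since each group is 1 library. The value is the difference of the 3-week changes given above, and these are the same 18 genes. By that value alone 13.9% of all genes were at least 2-fold lower. The share of all genes that also had opposite signs was not counted. On the log2 scale the 3-week difference minus the fibroblast difference was −1.79 for Ccne2, −1.72 for Ccne1, −1.62 for Birc5, −1.58 for Foxm1, −1.58 for E2f2, −1.52 for Mcm3, −1.49 for Ccnb1 and −1.45 for Mcm5. It was −1.29 for Cdc20, −1.26 for Ccna2, −1.20 for Bub1b, −1.19 for Mki67, −1.18 for Cdc6, −1.14 for Pcna, −1.08 for Plk1, −1.07 for Mybl2, −1.07 for Aurka and −1.01 for Mcm6. The median over the 40 genes was −0.90. For Ccna2, Mcm6 and Mki67 the signs were no longer opposite under upper-quartile and median-of-ratios scaling, where their 3-week differences were 0.05 to 0.09. Mybl2, Mcm6, Aurka and Plk1 fell short of 2-fold under these scalings, and Pcna under median-of-ratios scaling.

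In Ccne2 and E2f2 the 3-week change itself had opposite signs, lower under the AID-null and higher under the wildtype label, with the same differences of −1.79 and −1.58. The AID-null change of E2f2, −0.04 as deposited, was 0.06 to 0.12 under the other scalings, so its opposite sign held for the deposited scaling alone. That of Ccne2 stayed negative. Neither was tested.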

How the results depend on the processing

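With 1 RNA library per group no library could be left out. No paired analysis was possible because the groups compared have 1 library each. Promoter methylation was not run, since gene starts in mm9 were not used here. As deposited, the medians were 1.93 (AID-null, 3-week against fibroblast), 2.87 (wildtype), 0.52 (AID-null against wildtype fibroblasts), −0.37 (AID-null against wildtype at 3 weeks) and −0.90 (difference of the changes). In that order they were 2.13, 2.95, 0.59, −0.21 and −0.79 under upper-quartile scaling, 2.06, 2.81, 0.55, −0.17 and −0.72 under median-of-ratios scaling and 2.13, 3.02, 0.56, −0.30 and −0.87 under equal-sum scaling. With a pseudocount of 0.1 FPKM they were 1.95, 2.93, 0.54, −0.37 and −0.94. With a minimum of 5 FPKM the first was 1.97. No median changed sign. Counts of members past 2-fold stayed within 1.5 times except for those higher in AID-null fibroblasts, 4 under upper-quartile scaling against 2, and those lower in the AID-null 3-week culture, 1 under upper-quartile and median-of-ratios scaling against 3. At a 1.5-fold mark 18 members were higher in AID-null fibroblasts, 16 lower in the AID-null 3-week culture, 30 lower by the difference of the changes, and 3 and 2 lower at 3 weeks in the AID-null and wildtype comparisons. Of 1198 member differences recomputed 0 past 2-fold changed sign, 24 under 2-fold did, and 24 crossed the 2-fold mark. Unknown depth limits the low members, E2f2 and Cdc6 in fibroblasts above all.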

Other observations

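The letters CACGTG, an E-box that Myc with Max and other factors bind, were searched after the Cdk4 sequence had been read, on both strands (the motif is its own reverse complement). They occurred 4 times in the 300-base Cdk4 promoter. A match was in 3 of 34 member promoters (8.82%), against 7.15% of all promoters and 9.54% of those of genes with at least 1 FPKM in any library. At 3 weeks Cdk4 differed from fibroblasts by −0.26 under the AID-null and by 0.53 under the wildtype label.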
